A study of Mus musculus with 48 samples.

Results

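The comparison described here is that of fear conditioned mice (FC) with naive home cage mice (NH) in the hippocampus, the brain region needed for memory of places and contexts. Its members were the hippocampus arrays whose titles carry FC, 8 arrays, and those whose titles carry NH, 10 arrays, which makes 18 of the 48 arrays of the study. All 12422 probe sets that are not array controls were examined, and 10833 of them name 1 gene, which gives 8251 genes. The other arrays of the study are 8 hippocampus arrays of the CS arm and 22 amygdala arrays of the same arms. Every array was a one-colour Affymetrix chip hybridised with biotin-labelled cRNA from mouse total RNA. The labels give the arms as codes, and the readings as fear conditioning, stimulus alone (CS) and naive home cage come from the title of the study, which names associative and nonassociative learning. No genotype, agent, strain, age or sex is given for either arm, nor are the shock, the context or the time from session to dissection. Hippocampus titles carry 1 number, which may be that of a mouse, but the labels do not state whether an array holds 1 mouse or a pool. The p-values therefore measure the spread between these arrays, which may be technical in part.

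Each array has a labelled processing batch, and the arms were spread unevenly over the batches. Batch 4 held 2 FC and 2 NH arrays, batch 6 held 2 FC and 2 NH arrays, batch 5 held 4 FC arrays and no NH array, and batch 7 held 6 NH arrays and no FC array. The difference between the arms was taken with the batch as a block, so that it rests mainly on the 4 FC and 4 NH arrays of batches 4 and 6. The FC arrays of batch 5 entered it only through the CS arrays, which batches 4, 5 and 6 share. Levels are log2 of the deposited intensity, and 1 log2 unit is a doubling. Median intensity was 76.5 to 80.7 in FC arrays and 76.6 to 80.8 in NH arrays, and pairs of hippocampus arrays correlated at r from 0.982 to 0.999.

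A few arrays of batch 4 stood apart. In NH replicate 100 the 3′ probe set of Gapdh was 0.48 log2 units above the 5′ probe set, a sign of RNA quality, while this gap was 0.03 to 0.16 in the 8 FC arrays and -0.03 to 0.15 in the other 9 NH arrays. The same gap for Actb was 1.17 in this array, against 0.38 to 0.99 in FC arrays. For Pcx it was 2.21, against 1.54 to 2.12 in FC arrays. The Tfrc gap went the other way, with 0.76 against 1.08 to 1.35, so the controls did not all move alike. Replicates 105 and 109 of the CS arm, also of batch 4 and part of the same fit, had Gapdh gaps of 0.38 and 0.36. CS replicate 109 also had a Pcx gap of 2.26, above that of NH replicate 100. NH replicate 111 of batch 4 had the lowest Pcx gap of the hippocampus arrays (1.51). FC replicate 113, of the same batch, had the lowest Actb gap of the FC arrays (0.38). Its correlation with the mean of the other arrays was 0.993, as was that of NH replicate 100. NH replicate 100 also held the lowest NH level of several neuronal genes, among them Camk2a, the alpha subunit of calcium/calmodulin-dependent kinase II, at 6.92 when the next NH array was at 8.28. The same array held the highest NH level of other neuronal genes, among them Bdnf (9.33) and the neuropeptide genes Cck (11.07) and Tac1 (5.72). This array is 1 of the 4 NH arrays that carry the difference, so differences above 0.10 that it moved by more than 1.5 times are given with and without it.

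Neurons that fire strongly switch on immediate early genes within minutes, without new protein synthesis. Calcium entry and the ERK and cAMP pathways phosphorylate CREB, the serum response factor and their partners on these promoters. The first products are mostly transcription factors, such as the AP-1 proteins of the Fos and Jun families, the zinc finger proteins of the Egr family and the Nr4a nuclear receptors, together with phosphatases that switch the kinases off again. Fos has long been used to map the neurons that were active during learning. A stressful session also raises glucocorticoids, which act through a nuclear receptor on genes such as Sgk1, Per1 and Fkbp5.

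Fos was the 1 probe set of 12422 (0.00805%) that was higher in FC hippocampus past an adjusted p of 0.05, and no probe set was lower past it. Fos (probe set 160901_at) lay between 6.66 and 6.91 in the 8 FC arrays, with a median of 6.79, and between 4.85 and 6.12 in the 10 NH arrays, with a median of 5.43. All 8 FC arrays were above every NH array, and the FC arrays lay within a far narrower range than the NH arrays. Fos rose by 1.09 ± 0.145 log2 units (SE, 95% interval 0.79 to 1.38) in FC against NH hippocampus, a 2.12-fold difference, with an adjusted p of 0.000521 (limma, Benjamini-Hochberg over all probe sets). The arrays were bulk tissue, in which more cells with Fos transcripts and more Fos transcripts per cell cannot be told apart.

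The Fos difference was nearly the same in both batches that hold both arms. In batch 4 the FC arrays read 6.78 and 6.91, against 5.26 and 6.12 in the NH arrays, a difference of 1.15. In batch 6 the FC arrays read 6.84 and 6.88, against 5.47 and 6.04 in the NH arrays, a difference of 1.10. In each of these batches the 2 FC arrays lay closer together than the 2 NH arrays did. The FC arrays of batch 5 read 6.72, 6.80, 6.68 and 6.66, in the same range as the other FC arrays. The 6 NH arrays of batch 7 were between 4.85 and 5.54, and their mean of 5.26 was below the mean of 5.72 in the 4 NH arrays of batches 4 and 6. Without NH replicate 100 the difference was 0.91 with an adjusted p of 0.00964, and without NH replicate 111 it was 1.25 with an adjusted p of 6.23e-05. A second Fos probe set, 161716_at, was dim, with 4.69 to 5.39 in FC arrays and 4.55 to 5.16 in NH arrays, and its difference was 0.04 ± 0.117.

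**Figure D1:**
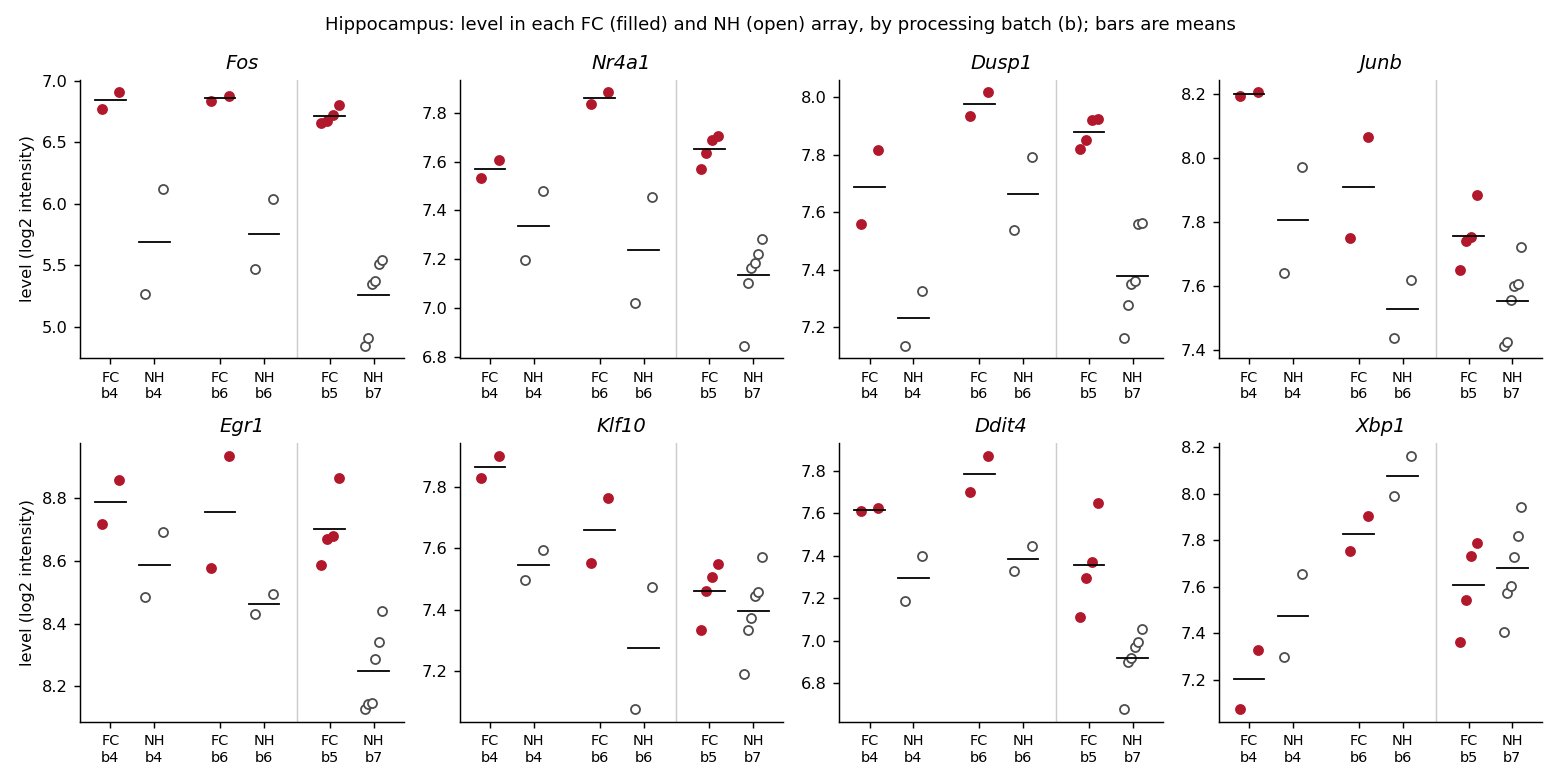
Level of 8 genes (log2 intensity, vertical axes) in each FC array (filled) and each NH array (open) of hippocampus, by processing batch, with bars at the means; batches 4 and 6 hold both arms, batch 5 only FC and batch 7 only NH. Every FC array is above every NH array for Fos and Nr4a1. The Xbp1 mean is lower in FC within batches 4 and 6, with overlap of the arms in batch 4.

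Complete separation of the arms over all 18 arrays was rare. It occurred upward in 3 of 12422 probe sets (0.0242%) and downward in none. Besides Fos these were Nr4a1 and B3galt1, a galactosyltransferase gene named here because its values were seen. B3galt1 had 5.65 to 5.77 in FC arrays and 5.36 to 5.65 in NH arrays, so that its arms nearly touched, and its difference with the batch as a block was 0.11 ± 0.0779, and 0.07 without NH replicate 100.

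The next smallest p-values after Fos belonged to Nr4a1, Dusp1 and Junb, and none of these passed the adjusted threshold. The 250 bases before the start of Fos and of these 3 genes are shown because they are classic activity-dependent promoters, at which CREB binds the cAMP response element (CRE). The sequences are those of RefSeq on build GRCm38.p6, given 5′ to 3′ on the strand of the gene. Capitals mark the CRE core TGACG or its reverse complement CGTCA.

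Fos, chr12:85473640-85473889, plus strand: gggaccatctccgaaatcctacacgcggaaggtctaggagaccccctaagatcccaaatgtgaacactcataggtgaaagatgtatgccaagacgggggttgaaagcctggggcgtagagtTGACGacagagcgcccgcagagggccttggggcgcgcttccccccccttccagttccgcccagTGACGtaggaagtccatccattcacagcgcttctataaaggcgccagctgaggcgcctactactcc
Nr4a1, chr15:101266596-101266845, plus strand: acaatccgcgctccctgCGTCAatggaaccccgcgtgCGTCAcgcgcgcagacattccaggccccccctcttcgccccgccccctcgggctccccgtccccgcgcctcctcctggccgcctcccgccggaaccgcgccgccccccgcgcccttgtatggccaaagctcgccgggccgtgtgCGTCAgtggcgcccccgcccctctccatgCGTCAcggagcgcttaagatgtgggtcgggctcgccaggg
Dusp1, chr17:26508473-26508722, minus strand: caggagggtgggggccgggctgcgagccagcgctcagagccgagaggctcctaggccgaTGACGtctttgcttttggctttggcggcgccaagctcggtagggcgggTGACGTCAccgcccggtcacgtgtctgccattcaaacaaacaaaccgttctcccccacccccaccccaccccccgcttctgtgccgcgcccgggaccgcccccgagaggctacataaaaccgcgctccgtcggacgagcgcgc
Junb, chr8:84978749-84978998, minus strand: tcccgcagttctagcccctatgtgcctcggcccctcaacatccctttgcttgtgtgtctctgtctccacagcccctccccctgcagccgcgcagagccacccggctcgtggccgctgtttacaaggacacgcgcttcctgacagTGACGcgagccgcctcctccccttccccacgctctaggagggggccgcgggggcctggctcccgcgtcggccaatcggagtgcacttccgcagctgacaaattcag

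Each of the 4 promoters held the core at least once. Fos held 2 cores, whose first bases lie at -129 and -66 from the start, and Nr4a1 held 4, at -233, -213, -69 and -40. Dusp1 held 3 cores, at -191, -143 and -140, of which the last pair overlap in the full palindrome TGACGTCA. Junb held 1 core, at -106. Searched on both strands, the core occurred in 17.8% of 32841 RefSeq promoters of the same length and the full palindrome in 1.55%. The AP-1 motif TGANTCA, which 6.75% of these promoters hold, was in none of the 4 windows. A match is a description of the letters and not evidence of binding.

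Among the AP-1 genes, Junb came next to Fos. JunB dimerises with Fos proteins to form AP-1. Its probe set 102362_i_at had 7.65 to 8.20 in FC arrays, median 7.82, and 7.41 to 7.97 in NH arrays, median 7.60. The arms overlapped across all arrays but not within batch 4 or batch 6, where FC minus NH was 0.39 and 0.38. The difference was 0.34 ± 0.0809 (adjusted p 0.904), and the second Junb probe set, 102363_r_at, gave 0.29 ± 0.0720 with 7 of 8 FC arrays above every NH array. Fosb, a further partner in AP-1, had 7.27 to 7.47 in FC arrays and 7.22 to 7.45 in NH arrays, a difference of 0.01 (95% interval -0.11 to 0.13). Jun and Jund, the other Jun family genes, differed by -0.09 ± 0.0674 and -0.02 ± 0.0791. Of the AP-1 genes measured, Fos thus passed the test, and the intervals of Fosb, Jun and Jund did not reach the Junb difference.

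The zinc finger genes Egr1 (main probe set) and Klf10 gave positive differences within both batches, without passing the test. Egr1, also known as zif268 and required for lasting memory in mice, had 8.58 to 8.93 in FC arrays, median 8.70, and 8.13 to 8.69 in NH arrays, median 8.39. Of the FC arrays 4 of 8 were above every NH array, and the 5 lowest NH arrays were all in batch 7. The difference was 0.25 ± 0.0797 (adjusted p 1.00), with 0.20 in batch 4 and 0.29 in batch 6. A second, dim Egr1 probe set gave 0.07 ± 0.110, with -0.0097 in batch 4 and 0.13 in batch 6. Egr2, a relative of Egr1, lay among the dimmest 40% of probe sets and differed by 0.13 ± 0.0706, and by 0.08 without NH replicate 100. Klf10, a Krüppel-like repressor first found as a TGF-beta early response gene, had 7.33 to 7.90 in FC arrays and 7.08 to 7.60 in NH arrays. Its difference was 0.30 ± 0.0870, with 0.32 in batch 4 and 0.38 in batch 6, and its second probe set gave 0.23 ± 0.0901. The FC arrays of batch 5, none above 7.55, overlapped the NH arrays of batch 7 for Klf10.

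Nr4a1 and Nr4a2 encode orphan nuclear receptors that act without a known hormone and are needed for long-term memory in mouse hippocampus. Nr4a1 had 7.53 to 7.88 in FC arrays, median 7.66, and 6.84 to 7.48 in NH arrays, median 7.19. No NH array reached the lowest FC array. The difference was 0.43 ± 0.0899 (95% interval 0.24 to 0.61, 1.34-fold), and its adjusted p was 0.329. It was 0.23 in batch 4 and 0.62 in batch 6, and leaving out 1 array at a time gave 0.32 to 0.51. Nr4a2 had 6.95 to 7.47 in FC arrays and 6.69 to 7.19 in NH arrays, with 5 of 8 FC arrays above every NH array. Its 2 probe sets differed by 0.19 ± 0.101 and 0.14 ± 0.0814, and by 0.10 and 0.07 without NH replicate 100.

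Dusp1 encodes a nuclear phosphatase that inactivates MAP kinases, and it is a target of both neuronal activity and glucocorticoids. It had 7.56 to 8.02 in FC arrays, median 7.89, and 7.14 to 7.79 in NH arrays, median 7.36. Of the FC arrays 7 of 8 were above every NH array, the exception being FC replicate 113 of batch 4, which still exceeded both NH arrays of its batch. The difference was 0.38 ± 0.0820 (95% interval 0.21 to 0.55, adjusted p 0.329), with 0.46 in batch 4 and 0.31 in batch 6. Dusp6, the cytoplasmic phosphatase specific for ERK, had 7.68 to 8.10 in FC arrays and 7.28 to 7.94 in NH arrays. Its difference of 0.25 ± 0.104 was 0.12 without NH replicate 100.

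Nr4a1, Dusp1 and Junb were sensitive to how the batch was treated. With the batch as a random block, the 3 genes passed together with Fos, at adjusted p 0.00398 for Nr4a1, 0.0441 for Dusp1 and 0.0441 for Junb probe set 102363_r_at. That model also uses the contrast of the FC arrays in batch 5 with the NH arrays in batch 7, in which batch and arm cannot be told apart.

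The activity genes were then counted as lists, with 1 probe set a gene. Of 25 activity transcription factors measured, 15 were higher and 10 lower in FC, with a median difference of 0.02, against 4182 of 8251 genes higher (50.7%) and a median of 0.0012 over all genes. Fos alone passed the adjusted test, beside 0.0121% of all genes. At an unadjusted p under 0.05, 6 of the 25 were higher and none lower, namely Fos, Nr4a1, Junb, Klf10, Egr1 and Ier2, beside 1.35% of all genes higher. The same number, 6 of 25, had FC above NH without overlap in both batches, beside 2.1% of all genes. The remaining members were spread around 0, down to -0.15 for Klf6. Without NH replicate 100, 19 of the 25 were higher, the median was 0.080, and the count at an unadjusted p under 0.05 was again 6 higher and 0 lower. Ier2, a nuclear early response protein from a dim probe set, had 5.29 to 5.67 in FC arrays and 4.74 to 5.36 in NH arrays, with a difference of 0.24 ± 0.104.

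Downstream activity genes gave small differences, most of them positive. Of 30 measured, 24 were higher and 6 lower, with a median of 0.05, and none passed the adjusted test. At an unadjusted p under 0.05, 4 were higher (Dusp1, Dusp6, Per1 and Errfi1, a feedback inhibitor of the EGF receptor, at 0.19) and 1 was lower, beside 1.35% of all genes higher and 0.691% lower. Without NH replicate 100 these counts were 2 higher and 0 lower, and Errfi1 was at 0.10. The lower one was Ptgs2, the inducible cyclooxygenase, from a dim probe set with 3.89 to 5.05 in FC arrays and 3.97 to 4.79 in NH arrays. Its arms overlapped across all arrays, and its difference was -0.28 ± 0.122. Btg2, an antiproliferative early gene, differed by 0.10 ± 0.0547, and by 0.06 without NH replicate 100. Homer1, a scaffold of the postsynaptic density with an activity-induced short form, differed by 0.13 ± 0.0808 and 0.09 ± 0.0821 on 2 dim probe sets. Rgs4, which speeds the shut-off of G protein signals, differed by 0.33, with 0.75 in batch 4 and 0.10 in batch 6, and by 0.10 without NH replicate 100.

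Bdnf, the neurotrophin whose promoters respond to activity, had 8.71 to 9.48 in FC arrays, median 9.05, and 8.80 to 9.33 in NH arrays, median 9.003. Across all arrays the arms overlapped almost fully, while FC was below both NH arrays in batch 4 and above both in batch 6. The difference was -0.08 (95% interval -0.29 to 0.14), made up of -0.32 in batch 4 and 0.17 in batch 6, and it was 0.05 without NH replicate 100. Of 10 neurotrophin, growth factor and receptor genes, 8 were higher, with a median of 0.07, against 0.00088 without NH replicate 100 for the neurotrophins and their receptors. Vegfa, the vascular growth factor, gave the smallest p of the list at 0.22 ± 0.0840 from a dim probe set, with 0.37 in batch 4 and 0.20 in batch 6. The FC arrays of batch 5 (4.76 to 4.85) lay below every NH array of batch 7 (4.89 to 5.12) for Vegfa.

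**Figure D2:**
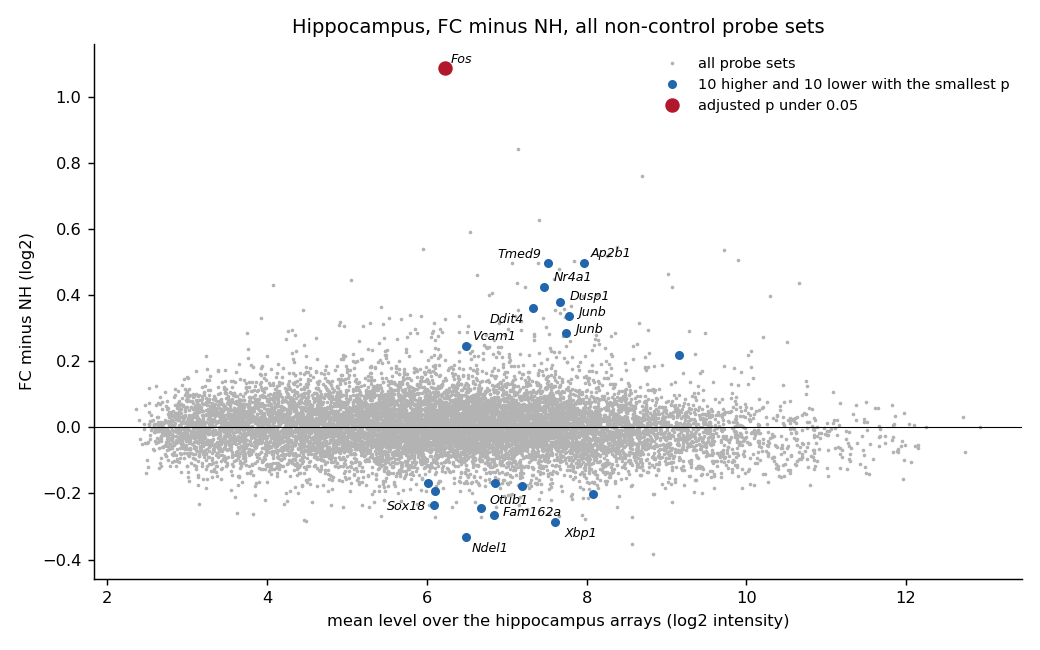
FC minus NH in hippocampus (log2, vertical axis) against mean level over the hippocampus arrays (log2 intensity, horizontal axis) for 12422 probe sets; blue points are the 10 higher and 10 lower probe sets with the smallest p by the naming rule, and the red point passed the adjusted threshold. Fos at 1.09 is the highest point, and 95% of the probe sets lie between -0.14 and 0.17.

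Glucocorticoid-responsive genes lay on both sides of 0. Of 31 measured, 18 were higher and 13 lower, with a median of 0.01, and none passed the adjusted test. The 4 with an unadjusted p under 0.05 were all higher, beside 1.35% of all genes higher and 0.691% lower: Dusp1, Ddit4, Per1 and Errfi1. Dusp1, Per1 and Errfi1 also belong to the activity effectors and are counted in both lists. Ddit4, an inhibitor of mTOR induced by stress and glucocorticoids, had 7.11 to 7.87 in FC arrays, median 7.62, and 6.68 to 7.45 in NH arrays, median 7.02. Of the FC arrays 5 of 8 were above every NH array, and the 6 NH arrays of batch 7 were the lowest of all. Its difference was 0.36 ± 0.0953 (adjusted p 1.00), with 0.32 in batch 4 and 0.40 in batch 6.

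Other well-known glucocorticoid targets had smaller differences. Sgk1, a kinase and classic early target of the hormone, had 7.21 to 7.91 in FC arrays and 6.81 to 7.48 in NH arrays. Its difference of 0.28 ± 0.144 came from batch 6 with 0.76, against -0.05 in batch 4. Per1, a clock gene and hormone target, had 6.97 to 7.18 in FC arrays and 6.72 to 7.06 in NH arrays, a difference of 0.19 ± 0.0836. Fkbp5, a co-chaperone that dampens the glucocorticoid receptor, differed by 0.05 (95% interval -0.07 to 0.18). Tsc22d3, the glucocorticoid-induced leucine zipper, differed by 0.00 (95% interval -0.17 to 0.16), and Cdkn1a, a cell cycle inhibitor, by 0.01 and 0.08 on 2 probe sets. Nfkbia, the inhibitor of NF-kappaB, differed by 0.13 ± 0.0709 on one probe set and by -0.06 ± 0.0861 on the other.

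Genes of the endoplasmic reticulum (ER) lay on the lower side. Of 25 chaperones and unfolded protein response genes measured, 6 were higher and 19 lower in FC, with a median of -0.07, while 49.3% of all genes were lower. None passed the adjusted test, and 2 were lower at an unadjusted p under 0.05, beside 0.691% of all genes. These were Hspa5 and Xbp1. Hspa5 encodes BiP, the main chaperone of the ER lumen, and had the lowest difference of all 12422 probe sets. It had 7.99 to 9.23 in FC arrays, median 8.66, and 8.39 to 9.43 in NH arrays, median 9.03. The arms overlapped in each batch. The difference was -0.38 ± 0.157 (95% interval -0.71 to -0.06), and it was -0.24 without NH replicate 100 and -0.50 without NH replicate 111.

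Xbp1 encodes a transcription factor of the unfolded protein response. It had 7.07 to 7.90 in FC arrays, median 7.64, and 7.30 to 8.16 in NH arrays, median 7.69. FC lay below NH without overlap in batch 6 but not in batch 4, and the difference was -0.29 ± 0.0963 (adjusted p 1.00). The level also differed between batches, with 7.07 and 7.33 in the FC arrays of batch 4 and 7.90 and 7.75 in those of batch 6. Dnajb11, a co-chaperone of BiP, differed by -0.27, with -0.48 in batch 4 and -0.06 in batch 6, and by -0.04 without NH replicate 100. Erp29, a lumenal chaperone, differed by -0.14 ± 0.0726, and its second probe set by -0.01 ± 0.0970, while the first gave -0.04 without NH replicate 100. Without that array 4 of the 25 genes were higher, the median was -0.04, and Xbp1 alone was lower at an unadjusted p under 0.05. Cytosolic heat shock proteins were spread around 0, with 11 of 26 higher and a median of -0.03.

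The remaining genes with the smallest p on the higher side were Vcam1, Tmed9, Ap2b1 and Rhoa. Vcam1, an adhesion molecule of vessel walls, had 6.44 to 6.675 in FC arrays and 6.19 to 6.64 in NH arrays on 1 probe set, a difference of 0.25 ± 0.0627. Its 2 other probe sets differed by -0.06 and -0.06, so the probe sets disagreed. Tmed9, a cargo receptor of the early secretory pathway, differed by 0.50 ± 0.131, with 0.84 in batch 4 and 0.08 in batch 6, and by 0.33 without NH replicate 100. Ap2b1, a subunit of the clathrin adaptor AP-2, differed by 0.50 ± 0.139, with 0.89 in batch 4 and 0.18 in batch 6, and by 0.25 without NH replicate 100. Rhoa, a small GTPase of the actin cytoskeleton, differed by 0.22 ± 0.0624, with 0.17 and 0.04 on its other probe sets.

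The 10 lower genes with the smallest p were Otub1, Xbp1, Dyrk1a, Pa2g4, Ramp2, Ndel1, Sox18, Pgs1, Fam162a and Gpn3. Their differences ran from -0.33 for Ndel1, a dynein regulator, to -0.17 for Pgs1 and Gpn3, and the smallest adjusted p on the lower side was 1.00. Without NH replicate 100, Ndel1 gave -0.20, Fam162a -0.16 and Gpn3 -0.098. The other probe sets of Ndel1 differed by -0.02 ± 0.0529 for the brightest and 0.06 ± 0.0856 for a dim one, so the probe sets disagreed. Sox18, an endothelial transcription factor, had 5.73 to 6.21 in FC arrays and 6.12 to 6.40 in NH arrays, with 7 of 8 FC arrays below every NH array. Its difference was -0.23 ± 0.0900, and its second probe set gave -0.09 ± 0.0689. Otub1, a deubiquitinase, differed by -0.24 ± 0.0728 on the first probe set and -0.17 ± 0.0745 on the second, and these were -0.13 and -0.06 without NH replicate 100, which held the highest NH level of the first. Dyrk1a, a kinase of neuronal growth, differed by -0.20 ± 0.0699 on the brighter probe set and by 0.27 ± 0.115 on the dim one, which gave 0.13 without NH replicate 100.

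**Figure D3:**
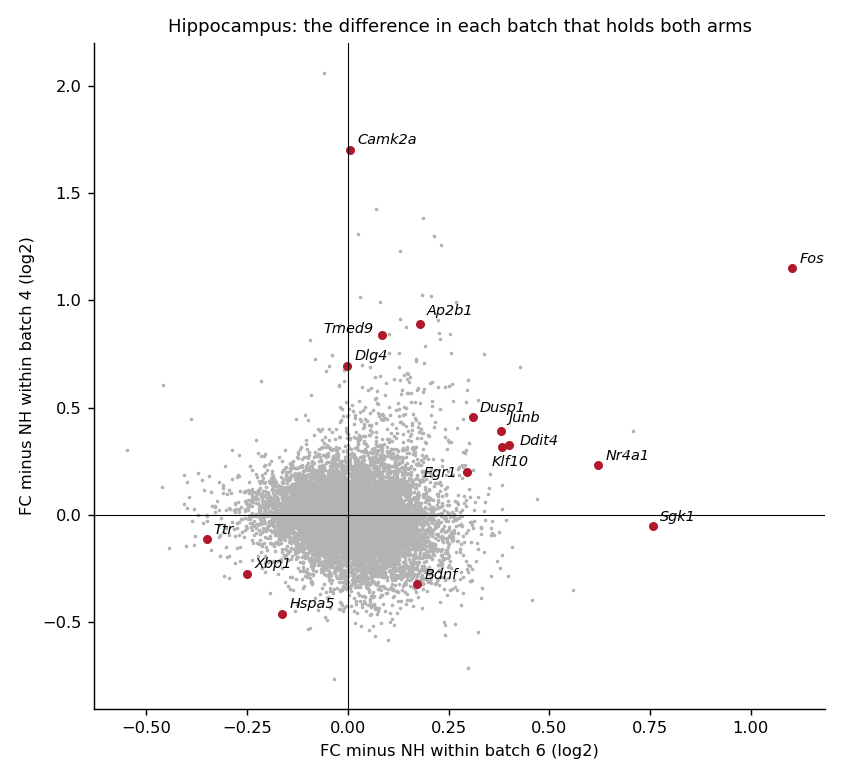
FC minus NH (log2) within batch 4 (vertical axis) against that within batch 6 (horizontal axis) for all probe sets (grey) and 16 named genes (red), 2 arrays per arm in each batch. Fos is far from 0 on both axes (1.15 and 1.10), while Camk2a (1.70 in batch 4, 0.01 in batch 6) and Sgk1 (0.76 in batch 6) are far from 0 on one.

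Over all probe sets the arms differed little. The median difference was 0.0013 and its SD over probe sets was 0.0802. At an unadjusted p under 0.05 there were 182 higher (1.47%) and 100 lower (0.805%) probe sets, 282 in all (2.27%), while 621 of 12422 independent tests would fall there with no difference. FC lay above NH without overlap in both batches for 273 probe sets (2.2%) and below it for 163 (1.31%). The count of 282 was 181 without NH replicate 100 and 698 without NH replicate 111. The 95% interval, which is not adjusted for the number of tests, reached 0.155 to either side of the estimate for the median probe set. Differences well above that size also failed the adjusted test. Nr4a1, at 0.43 ± 0.0899 where the median SE was 0.0758, had an adjusted p of 0.329 (limma).

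Synaptic gene lists showed no member past the adjusted test. Of 23 glutamate receptor and postsynaptic density genes, 17 were higher, with a median of 0.04, and without NH replicate 100 these were 14 and 0.01. The list members with the smallest p were Dlg4, the scaffold PSD-95, at 0.32 ± 0.182, and the NMDA receptor subunits Grin2a at 0.18 ± 0.104 and Grin2b at 0.22 ± 0.134. Dlg4 had 8.66 to 9.14 in FC arrays and 7.60 to 8.91 in NH arrays, the lowest value being that of NH replicate 100. Without that array the differences of Dlg4, Grin2a and Grin2b were 0.04, 0.07 and -0.03.

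Of 14 GABA genes, 9 were higher, with a median of 0.05. Gad2, which makes GABA at synapses, had 5.45 to 5.92 in FC arrays and 5.10 to 5.57 in NH arrays on a dim probe set, with 6 of 8 FC arrays above every NH array. Its difference was 0.22 ± 0.100, and 0.13 without NH replicate 100, while Gad1, the enzyme's other form, differed by -0.12 ± 0.0937, and by -0.06 without that array.

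Of 35 genes of calcium, ERK and cAMP signalling, 21 were higher, with a median of 0.01. Camk2a had 8.28 to 9.98 in FC arrays, median 8.61, and 6.92 to 9.46 in NH arrays, median 8.51. The 2 highest FC arrays and the highest and lowest NH arrays were all in batch 4. Its difference of 0.76 ± 0.332 was 0.09 without NH replicate 100, and the second Camk2a probe set gave 0.84 ± 0.416 with that array and 0.07 without it. Elk1, a partner of the serum response factor, differed by 0.22 ± 0.103 and by 0.07 without that array. Of 26 synaptic vesicle genes, 12 were higher, with a median of -0.02, and without NH replicate 100 these were 15 and 0.01. Syt11, an atypical synaptotagmin, differed by 0.29 ± 0.160 with all arrays and by -0.0027 without NH replicate 100.

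Of 17 clock genes, 12 were higher, with a median of 0.03, and of 23 chromatin enzymes, 12 were higher, with a median of 0.01. Without NH replicate 100, 9 clock genes and 17 chromatin enzymes were higher, with medians of 0.02 and 0.03. None of their members had a difference above 0.20 in size. Of 21 neuropeptide genes, 7 were higher, with a median of -0.03, and their differences ran from -0.14 for Tac1, the substance P precursor, to 0.10 for Oxt, the oxytocin precursor. Without NH replicate 100, Tac1 gave -0.02 and Oxt 0.05, and 12 of the 21 were higher, with a median of 0.02.

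Genes of the respiratory chain lay lower in batch 4 and not in batch 6. Of 59 subunits of the respiratory chain and ATP synthase measured, 14 were higher and 45 lower in FC, with a median of -0.07. None passed the adjusted test and none had an unadjusted p under 0.05. The median was -0.17 within batch 4 and 0.02 within batch 6, and it was -0.0029 without NH replicate 100, with 27 of 59 higher. The mean of the subunits, each taken relative to its own mean, was -0.12 and -0.04 in the FC arrays of batch 4, against -0.06 and 0.19 in its NH arrays. Ndufa6, a complex I subunit, had the difference furthest from 0, -0.24 ± 0.118, which was -0.15 without NH replicate 100. Cytosolic ribosomal proteins behaved alike, with 8 of 24 higher, a median of -0.03 and medians of -0.12 in batch 4 and 0.03 in batch 6. Their median was -0.0023 without NH replicate 100, with 12 of 24 higher. Rpl13a, a large subunit protein, differed by -0.18 ± 0.0732, and by -0.11 without that array. The part of RNA quality in these differences was not tested.

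**Figure D4:**
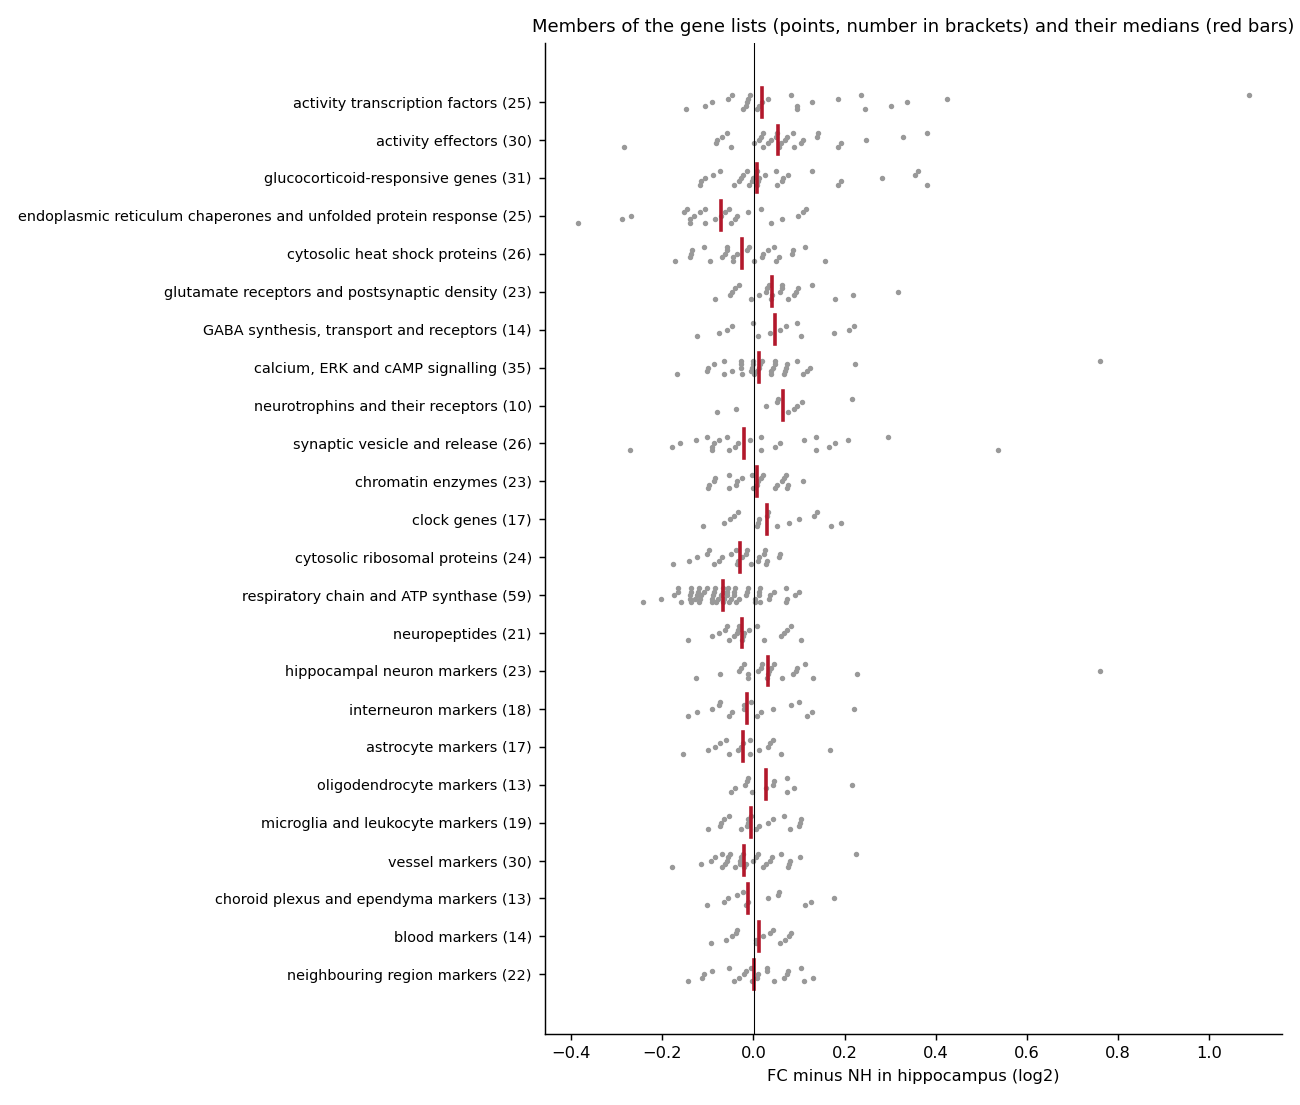
FC minus NH in hippocampus (log2, horizontal axis) for the measured members of 24 gene lists (grey points, 1 probe set a gene, number of genes in brackets) with the median of each list as a red bar. The medians lie between -0.07 and 0.07, and Fos at 1.09 is the point furthest from 0.

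Most markers of hippocampal neurons were high in both arms, and their level is given as the percentile among all probe sets of the array. Neurod6, a transcription factor of pyramidal neurons, lay on average at percentile 83.9 in FC and 80.98 in NH, and Nrgn, the calmodulin-binding protein neurogranin, at 97.5 in FC and 97.4 in NH. Prox1, the granule cell factor of the dentate gyrus, lay at 39.2 in FC and 36.6 in NH. Drd2, a dopamine receptor marking striatum, lay at 38.3 in both arms, among the dimmest 40% of probe sets. Markers of thalamus were brighter. Lef1 had 8.38 to 8.59 in FC arrays and 8.17 to 8.64 in NH arrays. Tcf7l2 had 8.15 to 8.54 in FC and 8.16 to 8.36 in NH arrays, and Prkcd 8.00 to 8.15 and 7.98 to 8.32. Neurod6 had 7.66 to 8.55 in FC and 7.53 to 8.20 in NH arrays. The presence of neighbouring tissue was not tested. Of 23 hippocampal neuron markers, 16 were higher in FC, with a median of 0.03, and of 22 markers of neighbouring regions, 11 were higher, with a median of 0.0022. The mean of the hippocampal neuron markers, each relative to its own mean, was -0.04 to 0.13 in FC arrays and -0.15 to 0.08 in NH arrays.

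No marker list of another cell type held a gene past the adjusted test. Higher in FC were 8 of 18 interneuron, 6 of 17 astrocyte, 7 of 13 oligodendrocyte, 9 of 19 microglia and leukocyte, 12 of 30 vessel, 6 of 13 choroid plexus and 9 of 14 blood markers. Their medians lay between -0.02 and 0.03. Without NH replicate 100 the counts of higher markers were 8, 8, 10, 10, 14, 3 and 7, in the same order. Gfap, the astrocyte filament protein, had 8.56 to 9.20 in FC arrays and 8.73 to 9.57 in NH arrays, and Mbp, the myelin basic protein, had 10.5 to 11.2 in FC arrays and 10.6 to 11.1 in NH arrays. Ttr, the transthyretin gene that marks choroid plexus, varied most, with 5.84 to 8.62 in FC arrays and 5.47 to 8.72 in NH arrays. Its high arrays occurred in both arms, and its difference was 0.13 ± 0.632, and -0.31 without NH replicate 100. Cldn5, the tight junction protein of brain endothelium, had 7.22 to 7.91 in FC arrays and 7.57 to 8.07 in NH arrays, a difference of -0.06 ± 0.104. Ramp2, which pairs with the adrenomedullin receptor of vessels, differed by -0.18 ± 0.0633, and Rgs5, a pericyte marker, by 0.23 ± 0.104, which was 0.09 without NH replicate 100.

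The same contrast in the amygdala, with 6 FC and 10 NH arrays, gave 8 probe sets past the adjusted test (0.0644%), all of them higher. There 6 of the NH arrays were in batch 1, which held no FC or CS array. With the batch as a block, the difference rested on 4 FC and 3 NH arrays in batch 2 and 2 FC and 1 NH array in batch 3. Hippocampus and amygdala arrays differ, but the animals may be shared. Amygdala titles can be read as the batch digit and a pair of numbers, and these include the number of a hippocampus array of the same arm in 4 of 6 FC and 3 of 10 NH titles, which together cover 7 of 8 FC and 6 of 10 NH hippocampus arrays. Read this way, an amygdala array pools 2 mice, and the tissues are not independent sets. Fos differed by 1.53 ± 0.143 there, against 1.09 ± 0.145 in hippocampus. Junb differed by 0.53 ± 0.0580 in amygdala and 0.34 ± 0.0809 in hippocampus, Dusp1 by 0.54 ± 0.0811 and 0.38 ± 0.0820, and Nr4a1 by 0.44 ± 0.0614 and 0.43 ± 0.0899. Egr1, Egr2 and Ier2, which also passed in amygdala at 0.41, 0.43 and 0.38, gave 0.25, 0.13 and 0.24 in hippocampus. Gadd45g, a stress-response gene of the DNA demethylation pathway, gave 0.30 in amygdala and 0.05 in hippocampus. The estimate in hippocampus was the smaller one for all 8, which were picked by their amygdala test.

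No difference between the tissues passed its own test, which takes the arrays of both tissues as independent. The contrast of hippocampus with amygdala was past the adjusted threshold for 0 of 12422 probe sets in limma, and past an unadjusted p of 0.05 for 395 (3.18%). With arrays that share title numbers joined in a random block, it was again 0 at the adjusted threshold and 419 at the unadjusted one, with a consensus correlation of 0.0988 within blocks. Hippocampus minus amygdala was -0.45 ± 0.217 for Fos (unadjusted p 0.0453, adjusted p 1.00), -0.30 ± 0.109 for Egr2 (unadjusted p 0.00806) and -0.01 ± 0.111 for Nr4a1. Ddit4 ran the other way, with 0.36 in hippocampus and 0.08 in amygdala, and its contrast was 0.28 ± 0.177. Tmed9 was 0.50 in hippocampus and -0.16 in amygdala, with a contrast of 0.66 (unadjusted p 0.000678). This contrast includes NH replicate 100, without which the hippocampus value of Tmed9 was 0.33. The respiratory chain list, with 14 of 59 genes higher in hippocampus (27 without NH replicate 100 and 33 in batch 6 alone), had 49 of 59 higher in amygdala, where 50.1% of all genes were higher. The values look as if each tissue had been normalized on its own, and the contrast assumes that this cancels on the log2 scale.

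**Figure D5:**
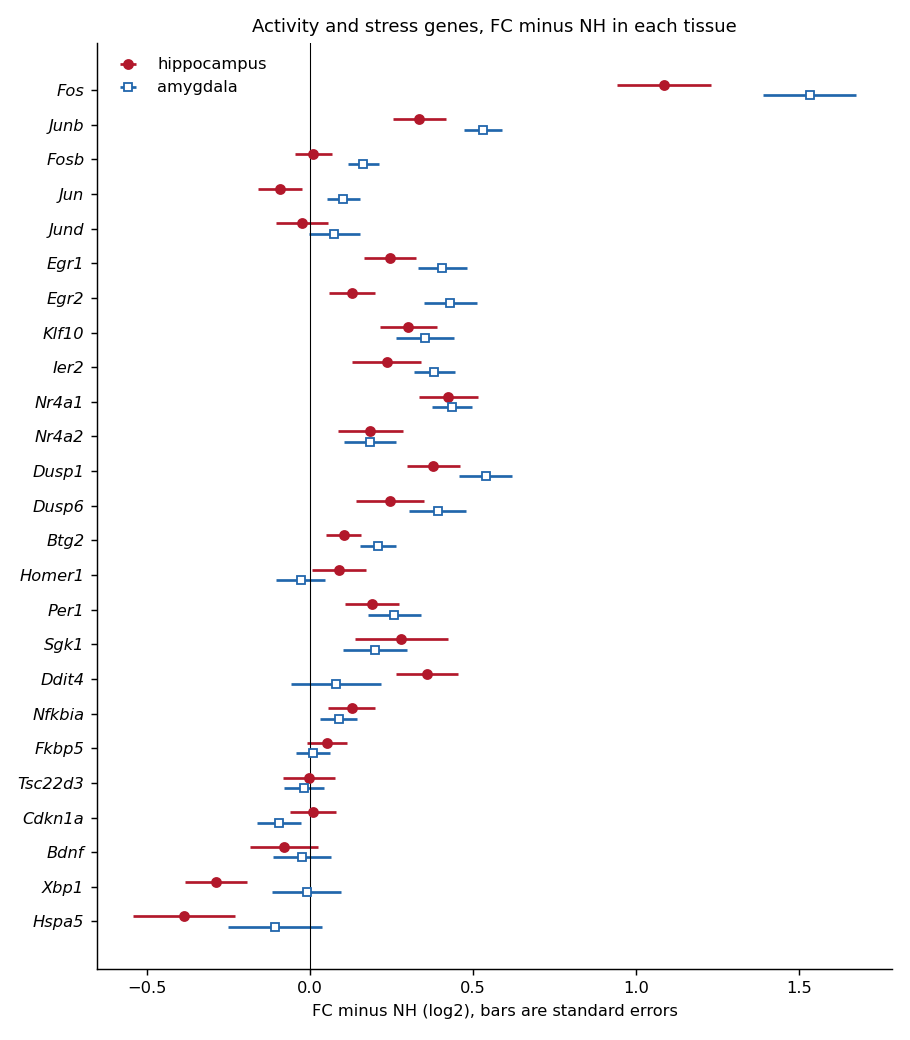
FC minus NH (log2, horizontal axis, bars are standard errors) for activity and stress genes in hippocampus (filled circles, 8 FC and 10 NH arrays) and amygdala (open squares, 6 FC and 10 NH arrays). The differences rest mainly on the batches that hold both arms (4 and 6 in hippocampus, 2 and 3 in amygdala). Fos is the highest point in both tissues, at 1.09 in hippocampus and 1.53 in amygdala.

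The CS arm of hippocampus shares its NH arrays with this comparison, so its values are set side by side and not correlated. Fos differed from NH by 1.09 in FC and 0.98 in CS, Nr4a1 by 0.43 and 0.36, Dusp1 by 0.38 and 0.39, Junb by 0.34 and 0.28, and Egr1 by 0.25 and 0.20. FC minus CS came from the same fit, so the NH arrays of batches 4 and 6 enter it through the batch terms. It was 0.11 for Fos (95% interval -0.12 to 0.34) and 0.07 for Nr4a1 (-0.07 to 0.21). For Dusp1 it was -0.01 (-0.14 to 0.12), and for Junb 0.05 (-0.07 to 0.18). For Klf10 it was 0.15 (0.01 to 0.29), unadjusted. The intervals allow a Fos difference of up to 0.34 log2 units between FC and CS, less than the lower bound of 0.79 for FC against NH.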

How the data were processed

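Transcript levels were measured on 48 one-colour arrays, of which the 8 FC and 10 NH hippocampus arrays are compared. Each deposited value is a linear intensity of 1 probe set on 1 array, made with RMA per the submitters' processing notes, whose settings the sources used here do not give. RMA evens out the intensity distributions, which hides a shift common to most transcripts. Arms were taken from the titles and batches from the descriptions. Log2 was taken with nothing added, and 66 control probe sets were left out of 12488. limma 3.58.1 in R 4.3.3 (lmFit, eBayes) was fitted to the 26 hippocampus arrays with batch as a fixed block, two-sided, Benjamini-Hochberg over 12422 probe sets, threshold 0.05. The number of arrays limits the precision.

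Platform annotation named 1 gene for 10833 probe sets, several for 396 and none for 1193. Of the first, 10817 had their identifier in the RefSeq table, and no symbol differed. Named are genes past the threshold, the 10 higher and 10 lower with the smallest p above the dimmest 40%, a panel, the 3 members of each list with the smallest p, and markers. Members and lists were chosen with earlier results of these data known, so lists were counted and not tested.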

Additional observations from a re-analysis of the deposited data

Results flagged for a closer look

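In 23 of 254 groups of FC or NH arrays examined for the named genes and markers, 1 array lay far from the rest of its arm by Dixon's criterion, which chance meets in about 1 in 20 groups. NH replicate 100 was that array in 13 of them. It was highest for Otub1 (7.25) and Adcy9, an adenylyl cyclase (8.48). It was lowest for Camk2a (6.92), Dlg4 (7.60), Elk1 (6.70), Tgfa (4.44), Syt11 (7.85), Npas2 (6.11), Dkk3 (8.12), Gjb6 (6.68), Rgs5 (6.24), Prox1 (5.15) and Cx3cr1, the fractalkine receptor of microglia (6.93). NH replicate 111 of the same batch was lowest for Rpl37a (10.1) and Rps24 (11.3).

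NH replicate 82 was highest for the choroid plexus genes Ttr (8.72) and Folr1 (6.85), and NH replicate 64 was lowest for Hba-a1, an alpha globin gene (9.32). Among FC arrays, replicate 113 was lowest for Dusp1 (7.56) and Cryab (6.44) and highest for Ltf (6.18). FC replicate 79 was highest for Per1 (7.18), and FC replicate 55 was lowest for Aif1, a microglial gene (4.77).

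For a pair of the named genes every FC array lay below the NH mean of its batch in hippocampus and above it in amygdala. This covers 4 hippocampus and 6 amygdala FC arrays in shared batches, and batch 3 of amygdala held 1 NH array. The share of all probe sets with this pattern was not counted. In batch 6 of hippocampus, Ptgs2 had 4.54 and 4.30 in FC arrays against 4.79 and 4.31 in NH arrays. Ptgs2 differed by -0.28 in hippocampus and 0.18 in amygdala, and Rpl13a by -0.18 in hippocampus and 0.15 in amygdala. The test of the difference between tissues gave -0.47 for Ptgs2 and -0.33 for Rpl13a, each with an adjusted p of 1.00 (limma).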

How the results depend on the processing

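Fos passed in all 8 fits that left out 1 array of batches 4 or 6 (1 higher and 0 lower probe sets in each), with differences of 0.91 to 1.25 and adjusted p of 6.23e-05 to 0.0106. The count of higher probe sets was 5 with no batch term, 4 with batch as a random block, 0 in batch 4 alone (Fos 1.15, adjusted p 0.993), 2 in batch 6 alone (Fos 1.10 and Anp32a 0.71, adjusted p 0.0203) and 0 with the dimmest 60% left out, a filter that removes Fos itself. With no batch term 1 unnamed probe set was lower (-0.41) and Nr4a1, Dusp1, Junb and Egr1 passed besides Fos. Under the other settings tried (only FC and NH arrays, the dimmest 40% left out, quantile normalization, median centring, 16 added before log2, a trended robust prior, array weights and averaged probe sets) Fos was the 1 higher probe set, at 0.56 to 1.13, the lowest being its average with the dim second probe set (adjusted p 0.0411). At an unadjusted p under 0.05 the 282 probe sets were 181 without NH replicate 100, 698 without NH replicate 111, 795 in batch 6 alone, 489 with no batch term, 578 with array weights, 183 of 8251 averaged genes, 169 of 7453 and 105 of 4969 under the 2 filters. The contrast between the tissues gave 0 probe sets under every setting run. Of 2599 single-gene values under alternatives, 171 had the opposite sign, none of them past the threshold. No paired analysis was possible because no replicate number occurs in both arms of the hippocampus.

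List medians that moved by more than the spread between arrays were as follows. Leaving out 1 array gave 0.021 to 0.080 for activity transcription factors (highest without NH replicate 100), 0.0036 to 0.043 for glucocorticoid-responsive genes (highest without NH replicate 111), 0.00088 to 0.117 for neurotrophins (lowest without NH replicate 100), -0.016 to 0.029 for clock genes (lowest without NH replicate 82), -0.035 to 0.016 for neuropeptides (highest without NH replicate 100) and -0.045 to 0.126 for choroid plexus markers (highest without NH replicate 82). In batch 4 alone the medians were 0.073 for activity transcription factors, -0.028 for glucocorticoid-responsive genes, 0.089 for glutamate receptors, -0.119 for ribosomal proteins, -0.175 for the respiratory chain, -0.079 for neuropeptides and -0.053 for hippocampal neuron markers. In batch 6 alone they were 0.098 for activity transcription factors, 0.091 for activity effectors, 0.096 for glucocorticoid-responsive genes, 0.047 for synaptic vesicle genes, 0.065 for chromatin enzymes, 0.078 for clock genes, 0.042 for neuropeptides and 0.139 for oligodendrocyte markers. With the dimmest 40% left out the activity transcription factors gave 0.057, and with no batch term the glucocorticoid-responsive genes gave 0.053. The leave-one-out and single-batch settings for lists, and the tissue contrast without NH replicate 100 or with shared title numbers as a block, were chosen after seeing the data, and the cause of these shifts was not tested.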
